A study of Homo sapiens with 9 samples.

Results

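The Sprouty genes SPRY1, SPRY2 and SPRY4, the SPRED genes SPRED1, SPRED2 and SPRED3, the PEA3-group ETS factors ETV4 and ETV5, and PHLDA1 and IER3 were followed after knockdown of ASAH1, the gene of acid ceramidase, a lysosomal enzyme that splits ceramide. These 10 genes were chosen by name, as feedback and output genes of ERK signaling, from the 26485 genes of the deposited tables. The choice was made with earlier results of these data known. All 10 passed the filter on low values in every comparison. The cells were MDA-MB-231, an established human line of triple-negative breast cancer that all groups share. RNA was sequenced from 3 libraries each of cells that stably expressed a nonspecific (NS) shRNA, ASAH1 shRNA #1 or ASAH1 shRNA #2. Each hairpin was compared with NS shRNA within its own table of normalized counts, which are reads divided by a size factor of the library, and both comparisons share the same 3 NS shRNA libraries.

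Signals that reach ERK, the last kinase of the RAS-RAF-MEK-ERK cascade, switch on transcription of proteins that then dampen the cascade. Sprouty and SPRED proteins act near the receptor and RAS, with SPRED proteins recruiting the RAS inactivator neurofibromin, while ETV4 and ETV5 are transcription factors that carry the ERK output to further genes. PHLDA1 and IER3 are induced early after growth factor stimulation. Transcripts of all these groups are widely used as a readout of ERK output, including in breast cancer cells. RNA does not measure ERK activity itself, and the paper reports lower phosphorylated ERK protein in MDA-MB-231 cells with ASAH1 shRNA.

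The reads on genes ran from 30989598 to 34867548 per library with NS shRNA, from 23806003 to 39791698 with shRNA #1 and from 35653318 to 49659106 with shRNA #2. As the check of the knockdown, mean normalized counts of ASAH1 went from 4489 ± 45.4 in NS shRNA cells to 1327 ± 51.9 in shRNA #1 cells (SD over 3 libraries), which is -1.76 on the log2 scale (limma adjusted p = 9.49e-09). They went from 4852 ± 57.9 to 783 ± 22.6 in the table of shRNA #2, which is -2.63 on the log2 scale (limma adjusted p = 5.42e-10). VIM, CD44, KRT8 and KRT18, which this line expresses, were read in all libraries. KRT8 fell with both hairpins (log2 fold changes of -1.50 and -0.77), VIM did too (-0.27 and -0.67), and KRT18 fell with shRNA #1 (-0.78) and had 0.15 with shRNA #2 (adjusted p = 0.146 from limma). Of 4 genes fixed as low or absent in this line, the hormone receptor genes ESR1 and PGR had at most 2 reads in any library, but ERBB2 had 1530 to 3581 and EPCAM 652 to 1773. ERBB2 fell (-0.69 and -0.42) and EPCAM rose (0.21 and 0.57) with both hairpins. Of markers of other cell types, PTPRC had at most 8 reads and ALB at most 4, while PECAM1 had 39 to 102 and COL1A1 545 to 965. PECAM1 fell with both hairpins (log2 fold changes of -0.59 and -0.91, adjusted p = 0.020 and 0.00154 from limma), and the part of these marker changes in the results below was not tested.

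Upstream sequences are shown for 3 genes that carry the contrast within the data, since SPRY1 fell and SPRY2 rose with both hairpins and PHLDA1 had the largest rise with shRNA #2. Each is the 250 bases before a transcript start, from the RefSeq promoter table (GRCh38.p14, the hg38 assembly), 5′ to 3′ on the strand of the gene, with GC boxes (GGGCGG on either strand, the motif of SP and KLF factors) in capitals.
PHLDA1, chr12:76031777-76032026, minus strand: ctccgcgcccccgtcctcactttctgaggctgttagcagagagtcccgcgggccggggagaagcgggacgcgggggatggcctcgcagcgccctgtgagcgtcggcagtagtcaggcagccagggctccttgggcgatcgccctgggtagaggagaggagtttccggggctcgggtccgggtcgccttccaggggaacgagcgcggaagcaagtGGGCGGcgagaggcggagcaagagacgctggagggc
SPRY2, chr13:80341127-80341376, minus strand: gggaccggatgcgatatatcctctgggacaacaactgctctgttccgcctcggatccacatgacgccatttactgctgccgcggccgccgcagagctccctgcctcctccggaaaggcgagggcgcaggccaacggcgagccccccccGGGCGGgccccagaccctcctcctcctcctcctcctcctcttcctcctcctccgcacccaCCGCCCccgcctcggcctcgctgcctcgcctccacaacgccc
SPRY1, chr4:123396545-123396794, plus strand: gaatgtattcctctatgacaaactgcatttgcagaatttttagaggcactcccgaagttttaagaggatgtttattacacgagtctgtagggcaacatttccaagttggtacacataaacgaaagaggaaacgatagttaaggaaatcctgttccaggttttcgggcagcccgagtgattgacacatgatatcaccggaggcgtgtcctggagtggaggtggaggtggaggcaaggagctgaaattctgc
The upstream window shown for SPRY2 held a GC box at -102 to -97 and another at -42 to -37, counted from the start site as base 0. The upstream bases of the other SPRY2 starts, chr13:80340109-80340358 and chr13:80339660-80339909, held none. The window of PHLDA1 held one at -36 to -31. The window shown for SPRY1 held none, while the second RefSeq start of SPRY1 had a pair of them. In the upstream bases of SPRY1 and SPRY2, the presence of a GC box thus depended on the start shown. SPRY2 also had a GC box at 23 to 28, in the 50 bases after a start. The table listed 12 windows for 7 of the 10 genes (SPRY1, SPRY2, SPRY4, SPRED1, SPRED2, SPRED3 and PHLDA1), each 250 bases before and 50 after a start. GC boxes were in 8 of these 12 windows and in 45.0% of all 35116 windows. The AP-1 motif TGANTCA was in 2 of the 12, in SPRED2 and SPRED3, and in 7.71% of all windows. The octamer TGAATGAA of Capicua, a repressor that ERK signaling relieves, was in the SPRED3 window at -192 to -185 and in 1.65% of all windows. The octamer TGAATGGA, the ETS core CCGGAAGT, the cAMP-response motif TGACGTCA and the CArG box of serum response factor were in 0 of the 12 and in 1.03%, 4.14%, 1.85% and 1.29% of all windows. All motifs were searched as exact letters on both strands, and a match is a description of the letters and no evidence of binding.

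With ASAH1 shRNA #1, 8 of the 10 genes rose and 2 fell, where 32.8% of all 14341 genes tested rose and 33.3% fell. With ASAH1 shRNA #2, 8 rose, 1 fell and 1 did not pass the test, where 33.5% of all 14250 genes tested rose and 33.4% fell. The log2 fold changes of the 10 genes ran from -1.41 to 1.42 with shRNA #1 and from -1.04 to 1.49 with shRNA #2. The median over all genes tested was 0.00 and 0.01. Because the 10 genes were chosen with earlier results of these data known, these counts are a description only. Since about 2 in 3 of all genes tested passed in one direction or the other, the size of each change is given below. For some of the changes, the place among all genes is given too. In bulk RNA, a change per cell and a change in the share of cells that express a gene cannot be told apart.

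**Figure D1:**
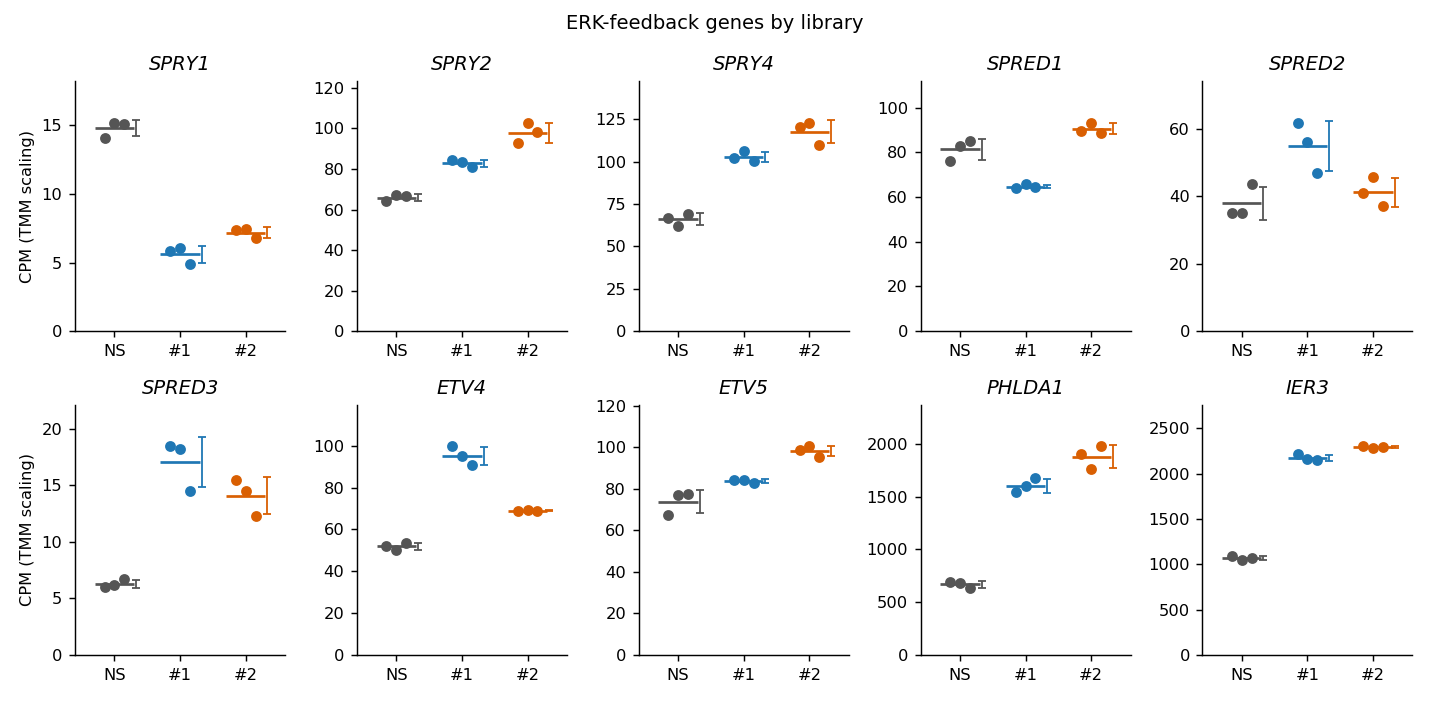
Level of each of the 10 genes in each of the 9 libraries, as CPM with TMM scaling (y axis, from 0; reads scaled to 1000000 per library), for NS shRNA (grey), ASAH1 shRNA #1 (blue) and ASAH1 shRNA #2 (orange). Points are libraries, the horizontal line is the mean and the bar at its side is the SD. SPRY1 lies below its NS shRNA libraries with both hairpins, SPRED1 lies below them with shRNA #1 and above them with shRNA #2, and PHLDA1 and IER3 lie far above them with both.

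Sprouty proteins are membrane-linked adaptors that restrain receptor tyrosine kinase signaling upstream of ERK, and the 3 expressed Sprouty genes did not move together. SPRY1 had normalized counts of 469, 502 and 504 with NS shRNA and of 195, 199 and 162 with shRNA #1. In the table of shRNA #2 it had 506, 545 and 544 with NS shRNA and 264, 266 and 242 with the hairpin. All knockdown libraries of SPRY1 therefore lay below all NS shRNA libraries, at 37.7% of the NS mean with shRNA #1 and 48.4% with shRNA #2. The log2 fold change of SPRY1 was -1.41 (SE 0.098, adjusted p = 1.92e-06 from limma) for shRNA #1, and 2.29% of all genes tested had a lower one. For shRNA #2 the change was -1.04 (SE 0.087, adjusted p = 2.41e-06 from limma), and 7.75% of all genes had a lower one.

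SPRY2, the Sprouty gene with the highest level per length in these cells, went the other way. Its normalized counts were 2132, 2223 and 2220 with NS shRNA and 2808, 2747 and 2685 with shRNA #1. In the table of shRNA #2 they were 2300, 2413 and 2394 with NS shRNA and 3337, 3684 and 3509 with the hairpin. The groups of SPRY2 did not overlap in either table, though the rise with shRNA #1 was smaller than the median absolute change of all genes, which was 0.37. Its log2 fold changes were 0.33 (SE 0.048, adjusted p = 0.000238 from limma) for shRNA #1 and 0.57 (SE 0.059, adjusted p = 1.18e-05 from limma) for shRNA #2.

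SPRY4, a Sprouty gene often used as a marker of ERK output, had normalized counts of 2219, 2060 and 2305 with NS shRNA and 3416, 3501 and 3323 with shRNA #1. Against shRNA #2 its NS shRNA libraries had 2394, 2236 and 2486, and the hairpin libraries had 4313, 4406 and 3936. Every knockdown library was thus above every NS shRNA library, at 1.56 times the NS mean with shRNA #1 and 1.78 times with shRNA #2. SPRY4 changed by 0.64 on the log2 scale (SE 0.055, adjusted p = 7.41e-06 from limma) in shRNA #1 cells. Its change in shRNA #2 cells was 0.83 (SE 0.066, adjusted p = 1.72e-06 from limma), a rise above that of 91.5% of all genes. SPRY3, the remaining Sprouty gene, was too low to test, with a mean normalized count of 3.91 with NS shRNA and 5.90 with shRNA #1.

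SPRED proteins bring neurofibromin to the membrane, where it returns RAS to its inactive form. SPRED1 was the only one of the 10 genes that passed the test in opposite directions with the 2 hairpins. Its normalized counts were 2533, 2746 and 2841 with NS shRNA and 2131, 2165 and 2140 with shRNA #1, with no overlap and a log2 fold change of -0.33 (SE 0.055, adjusted p = 0.000502 from limma). In the other table they were 2733, 2981 and 3063 with NS shRNA and 3213, 3342 and 3179 with shRNA #2. Those libraries did not overlap either, but the log2 fold change was only 0.15 (95% interval 0.02 to 0.29, adjusted p = 0.0486 from limma). That rise was lost in 11 of 17 alternative settings, among them the scaling of each library to its total reads, where it was 0.02 (limma adjusted p = 0.832), and the omission of NS shRNA replicate 1, where it was 0.10 (limma adjusted p = 0.165). Leaving out NS shRNA replicate 2 or any 1 of the shRNA #2 libraries also ended the call, with adjusted p between 0.0617 and 0.122 from limma. With both hairpins, the SPRED1 change was smaller than the median absolute change of all genes tested. That median was 0.37 with shRNA #1 and 0.40 with shRNA #2.

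SPRED2 had normalized counts of 1169, 1162 and 1459 with NS shRNA and 2065, 1848 and 1556 with shRNA #1. The groups did not overlap, yet the spread within each was wide, with SDs of 169 and 255. Its log2 fold change with shRNA #1 was 0.53 (SE 0.116, adjusted p = 0.00279 from limma). With shRNA #2 the values were 1469, 1637 and 1329 as compared with 1261, 1261 and 1573 with NS shRNA. SPRED2 thus overlapped between these groups. Its log2 fold change there was 0.12 with a 95% interval from -0.11 to 0.35 (adjusted p = 0.331 from limma). It reached 0.22 (adjusted p = 0.0427 from limma) without NS shRNA replicate 3, which was the highest of the NS shRNA libraries, and was -0.02 when libraries were scaled to total reads.

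SPRED3, which lacks a functional KIT-binding domain, was the least abundant of the 10 genes per length in NS shRNA cells and had the steepest rise with shRNA #1. Its normalized counts were 201, 204 and 223 with NS shRNA and 615, 602 and 481 with shRNA #1. In the table of shRNA #2 they were 217, 222 and 241 with NS shRNA and 555, 520 and 441 with the hairpin. The lowest knockdown library was thus well above the highest NS shRNA library, with 2.702 times the NS mean for shRNA #1 and 2.23 times for shRNA #2. On the log2 scale SPRED3 rose by 1.42 (SE 0.107, adjusted p = 2.95e-06 from limma) with shRNA #1 and 1.15 (SE 0.106, adjusted p = 4.98e-06 from limma) with shRNA #2. In these comparisons 96.4% and 95.9% of all genes tested had a lower log2 fold change.

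**Figure D2:**
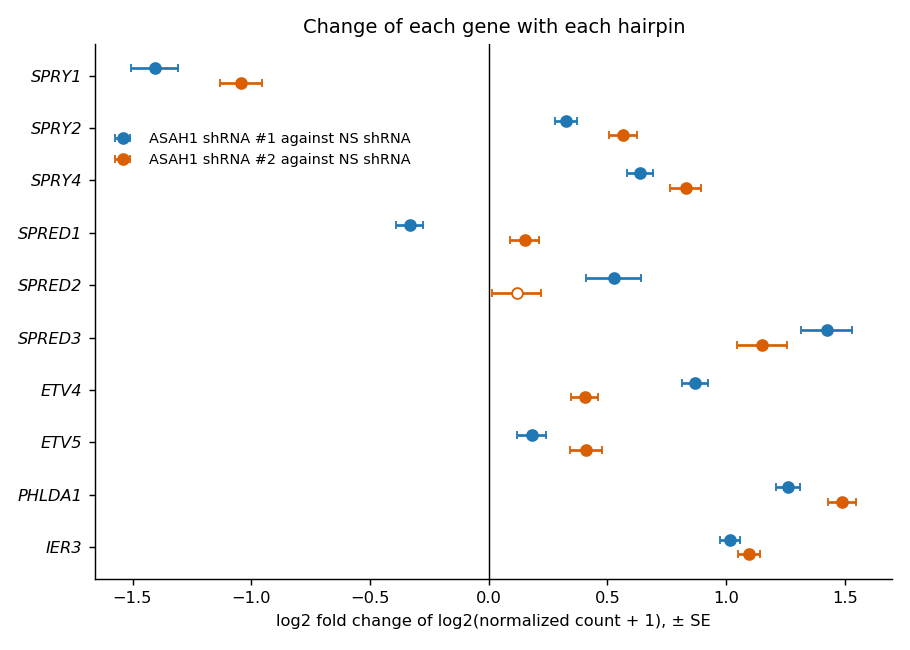
Log2 fold change of each gene with ASAH1 shRNA #1 (blue) and ASAH1 shRNA #2 (orange) against NS shRNA (x axis, difference in log2(normalized count + 1), bars are SE, 6 libraries per comparison). Filled points had an adjusted p below 0.05 in limma, and the open point is SPRED2 with shRNA #2. SPRY1 is lower with both hairpins, SPRED1 lies on opposite sides of 0, and PHLDA1, SPRED3 and IER3 have the largest rises.

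ETV4 and ETV5 belong, with ETV1, to the PEA3 group of ETS transcription factors, which act downstream of ERK. ETV4 had normalized counts of 1738, 1661 and 1786 with NS shRNA and 3326, 3132 and 3017 with shRNA #1. In the table of shRNA #2 its counts were 1876, 1804 and 1925 with NS shRNA and 2471, 2479 and 2467 with the hairpin. ETV4 was therefore higher in all knockdown libraries, by 1.83 times with shRNA #1 and 1.32 times with shRNA #2. Its log2 fold changes were 0.87 (SE 0.056, adjusted p = 1.13e-06 from limma) with shRNA #1 and 0.40 (SE 0.056, adjusted p = 9.34e-05 from limma) with shRNA #2. A smaller absolute change was found for 83.8% of all genes tested with shRNA #1 and for 50.1% with shRNA #2. ETV4 lies within the span of DHX8 on the opposite strand, which had 1659 to 3189 reads per library, and the counting was strand-specific. Strand does not separate genes that overlap on the same strand. ETV5 overlaps DGKG in this way over 4651 bases, and DGKG had 1 to 5 reads per library. SPRED2 overlaps the long noncoding gene ENSG00000232693 over 6986 bases, which had no counts under that name.

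ETV5 had normalized counts of 2244, 2547 and 2584 with NS shRNA and 2807, 2786 and 2748 with shRNA #1, a small rise with no overlap. Its log2 fold change with shRNA #1 was 0.18 (95% interval 0.04 to 0.32, adjusted p = 0.0258 from limma). This call was lost in 5 of 17 alternative settings. Without NS shRNA replicate 1, the lowest ETV5 library, it was 0.12 (limma adjusted p = 0.0696), and the limma adjusted p was 0.0672 or 0.0776 when shRNA #1 replicate 1 or 2 was left out. With shRNA #2 the rise was clearer, from 2421, 2764 and 2786 with NS shRNA to 3547, 3601 and 3416. That log2 fold change was 0.41 (SE 0.067, adjusted p = 0.000304 from limma) and passed in all 17 alternatives. Its size was near the middle of all genes tested, of which 50.5% had a smaller absolute change. For ETV5 with shRNA #1, 26.4% had a smaller one. ETV1, the other PEA3-group gene, had a log2 fold change of -0.07 (adjusted p = 0.517 from limma) with shRNA #1 and fell by 0.78 on the log2 scale (adjusted p = 2.19e-05 from limma) with shRNA #2.

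PHLDA1, a pleckstrin-homology-like protein that several receptor pathways induce, rose strongly with both hairpins. Its normalized counts were 23072, 22522 and 21066 with NS shRNA and 51427, 52751 and 55482 with shRNA #1. In the table of shRNA #2 they were 24896, 24448 and 22714 with NS shRNA and 68270, 63195 and 70780 with the hairpin. Each knockdown library held more than 2 times the count of each NS shRNA library, and the mean ratios were 2.40 and 2.81. The log2 fold change of PHLDA1 was 1.26 (SE 0.050, adjusted p = 6.74e-08 from limma) with shRNA #1 and 1.49 (SE 0.059, adjusted p = 2.25e-08 from limma) with shRNA #2. The latter was above that of 97.8% of all genes tested.

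IER3, an immediate early gene whose product affects cell survival and ERK activity, had 36402, 34871 and 35694 normalized counts with NS shRNA and 73831, 71482 and 71147 with shRNA #1. Its counts in the table of shRNA #2 were 39279, 37852 and 38485 with NS shRNA and 82659, 81943 and 82393 with the hairpin. The spread within groups was small beside the change, which was 2.02 times the NS mean with shRNA #1 and 2.14 times with shRNA #2. IER3 changed on the log2 scale by 1.02 (SE 0.041, adjusted p = 6.93e-08 from limma) with shRNA #1 and 1.10 (SE 0.046, adjusted p = 2.87e-08 from limma) with shRNA #2. IER3 spans chr6:30743199-30744548 (hg38, minus strand, GENCODE v44) and PHLDA1 chr12:76025447-76031776 (minus strand).

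The hairpins were then set against each other on the recovered reads of all 9 libraries, with edgeR's quasi-likelihood test, TMM scaling and Benjamini-Hochberg adjustment. Of the 10 genes, 6 were higher and 3 lower with shRNA #2 than with shRNA #1, where 31.1% of all 14714 genes tested were higher and 32.1% lower. ASAH1 was lower with shRNA #2, at 21.8 ± 0.62 CPM (reads scaled to 1000000 per library) as compared with 40.0 ± 1.78 (SD, n = 3 each), a log2 ratio of -0.88 (adjusted p = 6.82e-08). This comparison depended on the scaling. The TMM factors ran from 0.930 to 0.942 in the shRNA #2 libraries and from 1.02 to 1.05 in the other 6. Libraries were also scaled to their total reads on genes instead, a setting chosen after the data had been seen. The median log2 ratio of all genes then moved from -0.01 to -0.15. Of the 10 genes, 1 (SPRED1) was then called higher and 3 (SPRED2, SPRED3 and ETV4) lower. Over all 14714 genes tested, 9458 were called in either direction with this scaling and 9311 with TMM.

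The differences that held under both scalings were those of SPRED1, SPRED2, SPRED3 and ETV4. SPRED1 had 63.9, 65.6 and 64.6 CPM with shRNA #1 and 89.5, 93.2 and 88.8 with shRNA #2, for a log2 ratio of 0.48 (edgeR adjusted p = 1.01e-05). ETV4 had 99.7, 94.96 and 91.0 with shRNA #1 and 68.8, 69.2 and 68.9 with shRNA #2, for a log2 ratio of -0.47 (edgeR adjusted p = 8.40e-06). SPRED2 had 61.9, 56.0 and 46.9 with shRNA #1 and 40.9, 45.7 and 37.1 with shRNA #2, for a log2 ratio of -0.42 (edgeR adjusted p = 0.00763). None of these 3 genes overlapped between the hairpins, and their direction and call were kept in all 12 alternatives. SPRED3 had 18.4, 18.2 and 14.5 CPM with shRNA #1 and 15.5, 14.5 and 12.3 with shRNA #2, which overlapped, with a log2 ratio of -0.28 (edgeR adjusted p = 0.0361). Its call was lost in 5 of 12 alternatives, and without shRNA #2 replicate 3 the ratio was -0.19 (adjusted p = 0.144 from edgeR).

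The other 6 genes had higher values with shRNA #2 under TMM scaling. The log2 ratio was 0.35 for SPRY1 (adjusted p = 0.00713 from edgeR), 0.24 for SPRY2 (adjusted p = 0.00176), 0.19 for SPRY4 (adjusted p = 0.0158), 0.22 for ETV5 (adjusted p = 0.00538) and 0.22 for PHLDA1 (adjusted p = 0.00303). Scaled to total reads, these ratios were 0.21, 0.09, 0.04, 0.08 and 0.08, and none passed (adjusted p from 0.0852 to 0.572 from edgeR). IER3 did not pass under TMM scaling, with 2176 ± 34.0 and 2296 ± 9.0 CPM (SD, n = 3 each), libraries that did not overlap and a log2 ratio of 0.07 (edgeR adjusted p = 0.0794). The DESeq2 estimate of 0.08 had a 95% interval from 0.01 to 0.15 before adjustment, and with total reads the ratio was -0.07.

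Levels were compared between genes as RPKM, the reads per kilobase of exon scaled to 1000000 reads on genes per library, with exon lengths from GENCODE v44. With NS shRNA, IER3 led at 817 ± 16.4 and PHLDA1 followed at 116 ± 5.01 (SD, n = 3 for each level in this paragraph). IER3 exceeded 99.9% of the genes read in NS shRNA cells and PHLDA1 98.5%. The middle of the order was held by SPRY2 at 21.1 ± 0.57, ETV4 at 15.2 ± 0.58, ETV5 at 13.2 ± 1.04, SPRED1 at 10.8 ± 0.67 and SPRY4 at 10.4 ± 0.60. SPRED2 at 7.10 ± 0.98, SPRY1 at 3.84 ± 0.17 and SPRED3 at 1.11 ± 0.07 closed it, and SPRED3 exceeded 40.8% of genes. The only neighbours in this order whose libraries overlapped were SPRED1 and SPRY4. With shRNA #1 ETV4 stood at 28.1 ± 1.46 and SPRY2 at 26.8 ± 0.67, which overlapped, and SPRED3 at 3.02 ± 0.40 stood above SPRY1 at 1.47 ± 0.16. With shRNA #2 SPRED3 at 2.25 ± 0.26 again stood above SPRY1 at 1.70 ± 0.10, and SPRY4 at 16.8 ± 1.08 overlapped with ETV5 at 15.9 ± 0.52. The last 2 places were thus exchanged in both knockdown groups.

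**Figure D3:**
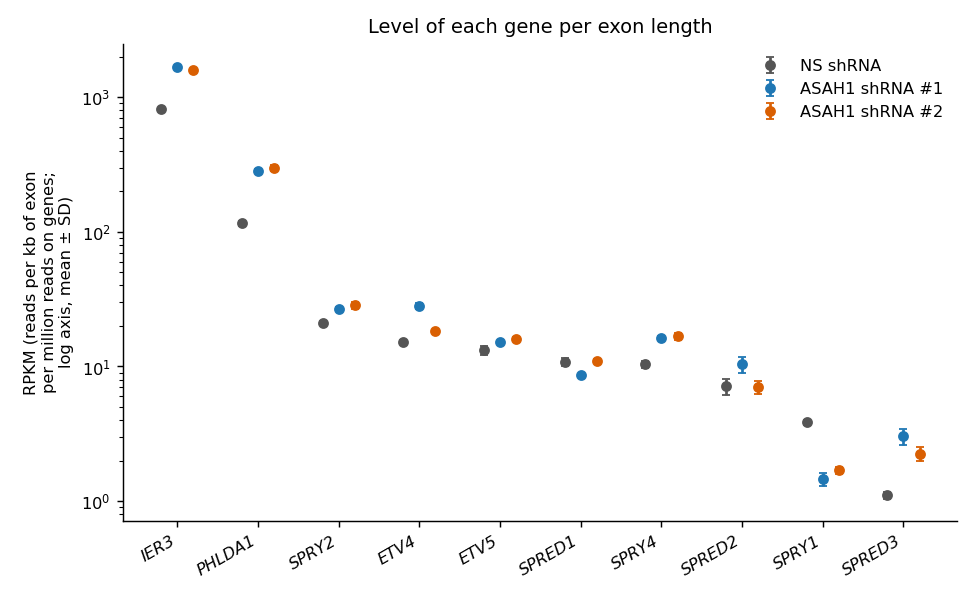
Level of each gene per exon length (y axis, RPKM, log axis) for NS shRNA (grey), ASAH1 shRNA #1 (blue) and ASAH1 shRNA #2 (orange), ordered by the NS shRNA level. Points are means of 3 libraries and bars are SDs. IER3 and PHLDA1 stand above the other 8 genes in every group, and SPRY1 and SPRED3 change places between NS shRNA and the hairpins.

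Shares within a family do not depend on how libraries were scaled. SPRY1 made up 10.9% ± 0.32 of the Sprouty total per exon length with NS shRNA, 3.29% ± 0.29 with shRNA #1 and 3.61% ± 0.15 with shRNA #2 (SD, n = 3 each). SPRY2 held 59.8% ± 1.11, 60.1% ± 0.61 and 60.7% ± 1.69 in the same order, with overlapping libraries. SPRY4 took 29.3% ± 1.39 with NS shRNA, 36.6% ± 0.51 with shRNA #1 and 35.7% ± 1.54 with shRNA #2. The Sprouty makeup of the knockdown cells thus held less SPRY1 and more SPRY4 with either hairpin. In the SPRED family, SPRED1 fell from 56.9% ± 2.15 to 39.5% ± 3.36 with shRNA #1 but had 54.2% ± 1.96 with shRNA #2, which overlapped with NS shRNA. SPRED3 went from 5.82% ± 0.14 to 13.7% ± 0.77 with shRNA #1 and 11.1% ± 0.96 with shRNA #2. In the PEA3 group, ETV4 had 44.7% ± 2.10, 57.7% ± 0.59 and 49.2% ± 0.84 with NS shRNA, shRNA #1 and shRNA #2, and ETV1 had 16.7% ± 0.85, 11.3% ± 0.61 and 8.13% ± 0.53. These shares were not tested.

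**Figure D4:**
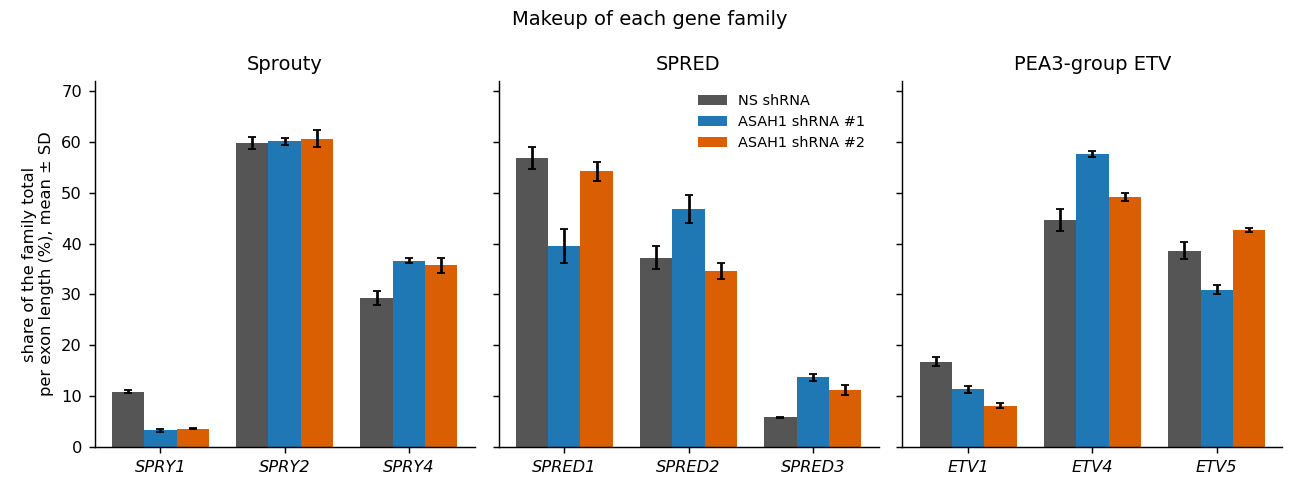
Share of each gene in the total of its family per exon length (y axis, percent, mean and SD of 3 libraries) for NS shRNA (grey), ASAH1 shRNA #1 (blue) and ASAH1 shRNA #2 (orange). SPRY1 drops from 10.9% to 3.29% and 3.61%, SPRED1 drops from 56.9% to 39.5% with shRNA #1 and is at 54.2% with shRNA #2, and SPRED3 is higher with both hairpins.

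The rest of the pathway was described from gene lists, whose counts stand beside 32.8% of all genes tested that rose and 33.3% that fell with shRNA #1, and 33.5% and 33.4% with shRNA #2. Of 10 genes of the RAS-ERK core, 1 rose and 5 fell with shRNA #1, and 4 rose and 3 fell with shRNA #2, with list medians of -0.23 and 0.08. BRAF, a kinase that activates MEK, rose with both hairpins (log2 fold changes of 0.58 and 0.59). ARAF, a related kinase, fell (-0.45 and -0.40), as did MAPK3 (-0.32 and -0.63), the gene of ERK1. Of 7 adaptors and exchange factors, 1 rose and 2 fell with shRNA #1 and 3 rose and 1 fell with shRNA #2. SOS1, a RAS activator, was the only one higher with both (0.24 and 0.28), though its libraries overlapped with NS shRNA in both comparisons.

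Of 15 other brakes on the cascade, 5 rose and 5 fell with shRNA #1, and 8 rose and 5 fell with shRNA #2, with medians of -0.01 and 0.22. NF1, the gene of the neurofibromin that SPRED proteins recruit, rose with both hairpins (log2 fold changes of 0.78 and 0.92, adjusted p = 0.000524 and 0.000168 from limma). ERRFI1, an inhibitor of the EGF receptor family, rose by 1.13 and 0.31, TESK1, a partner of Sprouty proteins, by 0.35 and 0.62, and the phosphatase genes DUSP5 by 1.52 and 0.93 and DUSP6 by 0.19 and 0.22. IL17RD, also called SEF and like the Sprouty genes an inhibitor of FGF signaling, fell with both (-0.79 and -0.88). PEBP1, the RAF inhibitor RKIP, fell as well (-0.39 and -0.89), as did CAV1 (-0.64 and -0.36). DUSP4, another phosphatase gene, fell with shRNA #1 (-0.78, adjusted p = 4.31e-07 from limma). It had -0.04 with shRNA #2 (adjusted p = 0.435 from limma).

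The list of 7 other ERK output genes leaves out the DUSP genes, which stand among the brakes. Of these 7, 5 rose and 0 fell with shRNA #1 (7 rose and 0 fell with shRNA #2), with medians of 0.58 and 0.79. The early response factor EGR1 had the largest rise of these with shRNA #1, at 2.82 (adjusted p = 7.34e-08 from limma), and rose by 0.80 with shRNA #2 (adjusted p = 0.000178 from limma). FOS rose by 1.283 and 0.51, FOSL1 by 0.58 and 0.26, the growth regulator MYC by 1.40 and 0.32, and the receptor gene EPHA2 by 0.38 and 1.41. Of 12 regulators of the ETV and Sprouty genes, 5 rose and 1 fell with shRNA #1, and 7 rose and 1 fell with shRNA #2. Among them the ETS factor genes ETS2 (log2 fold changes of 1.32 and 1.57), ETS1 (0.74 and 0.79) and ELK3 (0.44 and 0.40) rose with both hairpins, as did ATXN1 (0.24 and 0.59), a partner of Capicua. Of 6 tested genes of the same families as the 10, 2 rose and 3 fell with each hairpin, and PHLDA2 rose (0.14 and 0.24) while PHLDA3 (-0.41 and -0.41) and IER5L (-1.65 and -1.46) fell with both.

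**Figure D5:**
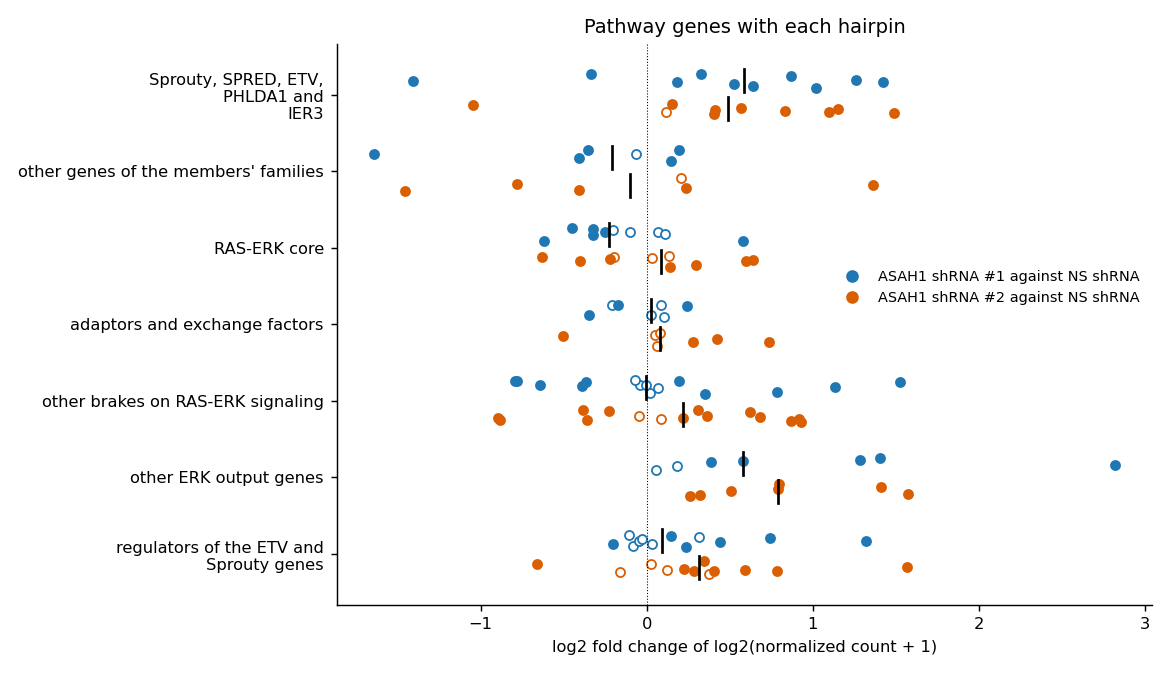
Log2 fold change of every tested gene of the 10 chosen genes and of 6 pathway lists (x axis, difference in log2(normalized count + 1)) with ASAH1 shRNA #1 (blue) and ASAH1 shRNA #2 (orange) against NS shRNA. Filled points had an adjusted p below 0.05 in limma, open points did not, and the vertical bars are list medians. The other ERK output genes, a list without the DUSP genes, have no called fall with either hairpin. Brakes, which hold the DUSP genes, and core genes lie on both sides of 0.

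For the 3 genes with the largest mean absolute change, the genes with the most similar pattern over the 9 libraries were sought among 11444 genes, by the root mean square difference in log2 level after centring each gene on its NS shRNA mean. For PHLDA1 they were APCDD1L-AS1 (0.079), SLC6A9 (0.080) and C1orf109 (0.108). For SPRED3 they were ABL2 (0.093), HRH1 (0.097) and GTPBP10 (0.102). For SPRY1 they were DNAH2 (0.076), LOXL4 (0.087) and LIPH (0.112). This is a description of likeness in level only, and the other 7 genes were not searched.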

How the data were processed

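RNA of 9 MDA-MB-231 libraries was sequenced as strand-specific poly(A) libraries, although another label names ribosomal RNA depletion. The authors used Trimmomatic 0.36 to trim and STAR 2.7.1a to align reads to hg38, then HTSeq for counts per UCSC gene, and ran DESeq2 1.28 for each hairpin with NS shRNA; another methods paragraph names Bowtie2, RSEM, TMM and edgeR. They deposited a normalized signal per library, which is a read count divided by a size factor, and its mean. Their DESeq2 output, with a log2 fold change and its error, a test statistic (a score) and p-values, was deposited by the authors too and not used here.

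Every signal was a whole number of reads over 1 factor per library (tolerance 0.01), so reads were recovered. The NS shRNA reads had 0 differences between the tables, and 28 symbols turned into dates were restored. Hairpins were compared with NS shRNA by limma 3.58.1 with trend on log2(signal + 1), two-sided, where the mean reached 10, and with each other by edgeR 4.0.16 on reads, two-sided, in R 4.3.3. Benjamini-Hochberg adjustment covered all genes tested, and genes were called at 0.05. Python 3.11.15 was used with pandas 2.3.3 and matplotlib 3.10.9. The fits were tested on simulated data. Replicates are biological per the methods, and replicates of a group differed beyond sampling noise (chi-square per gene 5.26 to 23.2). As alternatives, the pseudocount was set to 0.1 or 5, the filter dropped or raised to 50 and the limma trend dropped. Others were upper quartile rescaling, edgeR and DESeq2 1.42.0 on reads, DESeq2 size factors, 1 fit of all 9 libraries or of the 6 knockdown libraries, a replicate block, each library left out, and, chosen after the data were seen, scaling to total reads. Exon lengths matched 87.5% of genes. The 10 genes and all lists were chosen with earlier results of these data known. The rule named all 10 genes, ASAH1, list members called in the same direction with both hairpins, and the 3 nearest genes for the 3 genes with the largest mean absolute change. ETV1, SPRY3, DUSP4 and the cell type markers were named beside it. An item that the rule also names is not given.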

Additional observations from a re-analysis of the deposited data

Results flagged for a closer look

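The 2 hairpins differed from each other in 9 of the 10 genes by edgeR's quasi-likelihood test of shRNA #2 against shRNA #1 with TMM scaling (adjusted p below 0.05 over all genes tested). Such calls were common among all 14714 genes, with 31.1% called higher and 32.1% called lower in shRNA #2 cells. For the 9 genes, the log2 ratio was 0.48 for SPRED1, 0.35 for SPRY1, 0.24 for SPRY2, 0.22 for ETV5, 0.22 for PHLDA1 and 0.19 for SPRY4. It was -0.47 for ETV4, -0.42 for SPRED2 and -0.28 for SPRED3. ASAH1 was also lower with shRNA #2 (log2 ratio -0.88), and whether the depth of knockdown or the hairpin sequence goes with these differences cannot be told apart with 1 line of cells per hairpin. SPRED1, SPRED2, SPRED3 and ETV4 also passed with libraries scaled to total reads, and the other 5 did not.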

How the results depend on the processing

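Each change against NS shRNA was recomputed under 17 alternatives and each difference between the hairpins under 12. SPRY1, SPRY2, SPRY4, SPRED3, ETV4, PHLDA1 and IER3 kept their direction and their call against NS shRNA in all 17 with both hairpins, as did SPRED1 and SPRED2 with shRNA #1 and ETV5 with shRNA #2. PHLDA1 ranged from 1.22 to 1.29 with shRNA #1 and from 1.35 to 1.53 with shRNA #2, and SPRY1 from -1.46 to -1.31 and from -1.18 to -1.0 (log2). ETV5 with shRNA #1 was not called in 5 and SPRED1 with shRNA #2 not in 11. Scaling to total reads reversed SPRED2 with shRNA #2 to -0.016 (adjusted p = 0.902 from limma) and the hairpin ratio of IER3 to -0.074 (adjusted p = 0.0687 from edgeR), neither of which was called. It also reduced the number of the 10 genes called higher with shRNA #2 than with shRNA #1 from 6 to 1. Over all 14714 genes tested between the hairpins, 9458 were then called in place of 9311. The same scaling moved the median of all genes against NS shRNA from 0.01 to -0.12 with shRNA #2. The cause was not tested. SPRY4 lost the difference between hairpins without shRNA #2 replicate 1 (0.17, adjusted p = 0.0506 from edgeR) or replicate 2 (0.15, adjusted p = 0.0519), and IER3 gained it with only the 6 knockdown libraries (0.08, adjusted p = 0.0464). Deviations of same-numbered libraries from their group means correlated across genes at -0.69 to -0.16 between NS shRNA and a hairpin. Differently numbered libraries of NS shRNA and a hairpin correlated at -0.36 to 0.62. Between the 2 hairpins, same-numbered libraries correlated at 0.09 to 0.56 and differently numbered ones at -0.44 to 0.25. The main fits did not pair the libraries, and whether hairpin libraries share a replicate factor was not tested. With a replicate block, the genes called were 8237 in place of 9479 with shRNA #1 and 8526 in place of 9538 with shRNA #2, ETV5 with shRNA #1 (0.18) had an adjusted p of 0.0778 and SPRED1 with shRNA #2 (0.15) one of 0.142 in limma. Depth limits only SPRY3 among the family genes, with at most 10 reads in a library.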
